A study of Homo sapiens with 30 samples.

Results

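SiHa cells come from a squamous cell carcinoma of the uterine cervix and carry human papillomavirus. They were kept in acid medium, at pH 6.5, or in medium of pH 7.4, and RNA sequencing counted the reads per gene. The 10 SiHa libraries, 5 at pH 6.5 and 5 at pH 7.4, were taken by their labels out of the 30 libraries of the series, which also cover a pharyngeal and a colon carcinoma line. Cells at pH 6.5 had lived at that pH for 1 month or longer before the experiment. Both groups had the same DMEM with 2 mM glutamine, 10 mM glucose and 10% serum, buffered by HEPES and PIPES at 25 mM each, at 37 °C and 5% CO2. Replicates carry the numbers 1, 4, 5, 6 and 7 in both groups, and values below follow that order. The labels are silent on whether each library is a culture or an adapted population of its own, so p-values measure only the spread between these libraries, and SiHa itself is 1 line.

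Tumours with poor blood supply make the fluid around them acid, and cells that survive there for weeks change their metabolism, adhesion and signalling. Protons act on the cell surface through acid-sensing receptors and channels and enter the cytoplasm when transporters cannot keep pace. Squamous epithelium holds keratins and cell junctions under the control of transcription factors such as TP63, OVOL2 and the ETS factors ELF3 and EHF. The comparison asked how long exposure to acid changed genes of regulators, receptors, transporters and nuclear processes in such a cell.

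Libraries held 21.02 to 39.73 M reads, and values are normalised read counts. The libraries fell apart by pH on the first principal component, with 56.4% of the variance. The second, with 16.6%, spread the pH 7.4 libraries from replicate 1 at 61.2 to replicate 7 at -48.5. It also spread the pH 6.5 libraries, from replicate 1 at 26.3 to replicate 7 at -36.1. In pH 7.4 replicates 6 and 7 the filament gene VIM exceeded 1000, and 419 genes stood in both at least 4-fold above every other SiHa library, while 0 genes stood as far below. Of these genes 147 were called lower at pH 6.5, and 16 of them also without these libraries. The genes were picked for high values in these pH 7.4 libraries, so both counts follow in part from that choice. Each comparison is therefore given with all 10 libraries and with the 8 that remain without them ("with 8 libraries"), which leaves 5 libraries at pH 6.5 and 3 at pH 7.4. The summed level of 11 markers of squamous and simple epithelium was 65892 to 207085 at pH 6.5, against 218418 to 281834 at pH 7.4. That of 15 mesenchymal markers was 5892 to 9745 at pH 6.5, against 7987 to 20731 at pH 7.4, highest in replicates 6 and 7. A few abundant members made up most of each sum, in the epithelial one KRT8, KRT17 and KRT7. The sums therefore say little about members with low counts. Markers of colon epithelium, leukocytes and endothelium summed to at most 35.1, 29.5 and 21.7 in any library, and CDX2 and HBB were at 0 in all 10. The part of these shifts in the results below was not tested. In bulk RNA, fewer cells of a kind and less RNA per cell cannot be told apart.

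With all libraries, 18834 genes were tested, those whose higher group averaged 10 or more. At a limma adjusted p under 0.05, 3712 genes (19.7%) were higher and 3978 (21.1%) lower at pH 6.5, together 40.8%. With 8 libraries, 2775 (15%) were higher and 3012 (16.2%) lower, together 31.2% of 18555. In all, 5497 genes (29.2%) were called the same way in both comparisons and 0 in opposite ways. The comparisons share 8 libraries, so the overlap is no independent test. Groups did not overlap for 5324 genes (28.3%). Lists of genes are read below against these shares and against a median log2 change over all genes of -0.02. The share called ranged over the 82 lists from 22.5% to 75.56%. Changes are log2 of pH 6.5 over pH 7.4 on normalised counts plus 1, written with the SE as ± where one stands. Unless other values stand beside it, a gene said here to have risen or fallen was called under all 26 alternatives tried.

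**Figure D1:**
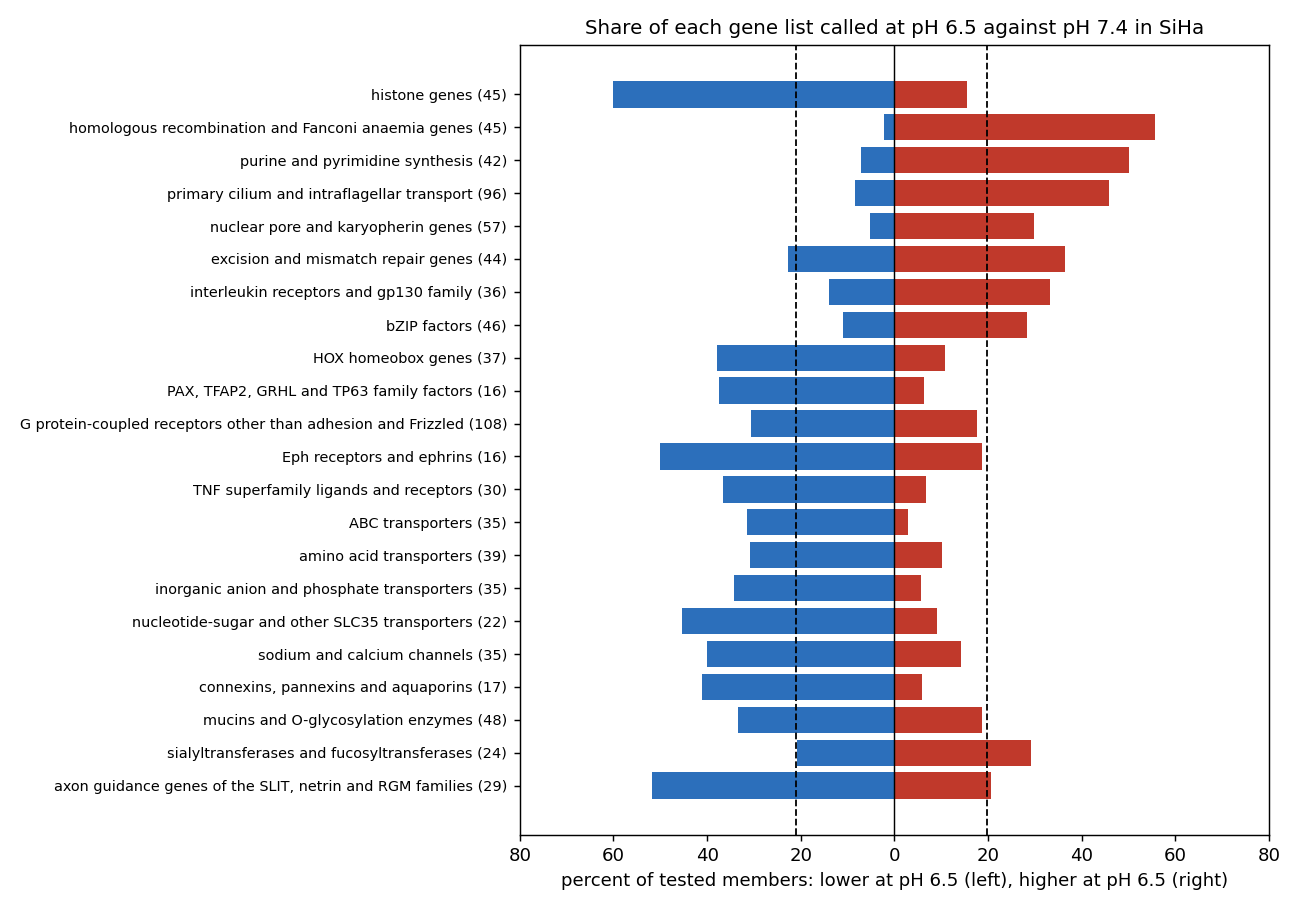
Share of the tested members of 22 gene lists that were lower (left, blue) or higher (right, red) at pH 6.5 than at pH 7.4, with the number tested in brackets and all 10 libraries in the test. Dashed lines mark the shares over all genes, 21.1% lower and 19.7% higher. Histone genes reach farthest to the left, and genes of homologous recombination farthest to the right.

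Transcription factor genes moved in both directions. Some that guide development of mesenchyme, blood or nerve rose, while others, such as PRRX1, a factor of mesenchyme, fell. The genes named were picked by size of change, so they do not show the balance of their families. FOXF1 (ENSG00000103241), a forkhead factor of visceral mesenchyme and lung, had 1489, 1753, 1360, 1806 and 2295 normalised counts at pH 6.5, against 384, 289.8, 273, 143 and 113 at pH 7.4. The groups did not overlap, and pH 7.4 replicates 6 and 7 were the lowest of all. The log2 change was 2.97 ± 0.29 (2.45 ± 0.17 with 8 libraries), with limma adjusted p = 2.61e-05 and 1.51e-05. MAF, a bZIP factor of lens and T cells, had 495, 299, 319, 196 and 169.9 at pH 6.5, against 30.6, 27.5, 46.2, 124 and 61.7 at pH 7.4. All libraries at pH 6.5 lay above all at pH 7.4, and the log2 change was 2.45 ± 0.39 (2.98 ± 0.32 with 8 libraries). CBFA2T3, a corepressor of the RUNX1T1 family in blood cells, had 167, 172, 123, 96.5 and 66.6 at pH 6.5, against 6.11, 15.2, 6.77, 9.36 and 1.67 at pH 7.4, a log2 change of 3.98 ± 0.43 (3.63 ± 0.37 with 8 libraries).

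Among the other factor genes that rose was NFATC1, a calcium-responsive factor activated by calcineurin, which spanned 469.8 to 605 at pH 6.5, against 111 to 177 at pH 7.4, a log2 change of 1.86 (1.63 with 8 libraries). RCAN1, which binds and restrains calcineurin and is itself a target of NFAT factors, rose, with a log2 change of 1.83 (2.09 with 8 libraries). It spanned 6598 to 28016 at pH 6.5, against 2269 to 8370 at pH 7.4, with overlap through replicate 7. TAL1, a bHLH factor of blood stem cells, rose, with a log2 change of 2.32 (2.24 with 8 libraries), and the homeobox genes DLX6 and IRX5 by 2.40 (1.95 with 8 libraries) and 1.51 (1.84 with 8 libraries). NR3C2, the mineralocorticoid receptor, rose, with a log2 change of 1.24 (1.31 with 8 libraries). RUNX3 rose, with a log2 change of 0.88 (0.88 with 8 libraries) and FOXO1, a factor held out of the nucleus by insulin signals, by 0.78 (0.96 with 8 libraries). SOX7 and SOX9 rose, with log2 changes of 1.29 (1.19 with 8 libraries) and 0.81 (1.02 with 8 libraries), and both overlapped between the groups because of pH 7.4 replicate 7. CREB5, a bZIP factor, was 17.2 to 145 at pH 6.5, against 1.17 to 18.4 at pH 7.4 and changed by 2.57 (2.57 with 8 libraries), but with 8 libraries the call was lost when pH 7.4 replicate 5 was also left out (limma adjusted p = 0.055). DDIT3, which encodes the stress factor CHOP, rose, with a log2 change of 1.23 (1.13 with 8 libraries), while NFE2L1 and NFE2L2, regulators of proteasome and antioxidant genes, fell, with log2 changes of -0.56 (-0.56 with 8 libraries) and -0.54 (-0.56 with 8 libraries).

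Several factors of epithelial identity fell, and ZEB1, a repressor of epithelial genes, rose. OVOL2 (ENSG00000125850), a zinc finger factor that keeps cells epithelial and represses ZEB1, had 9.43, 8.39, 12.6, 7.75 and 6.83 at pH 6.5, against 87.6, 83.4, 126, 171 and 130.2 at pH 7.4. Every pH 7.4 library was above every pH 6.5 library, and the log2 change was -3.57 ± 0.25 (-3.32 ± 0.28 with 8 libraries) (limma adjusted p = 2.88e-06 and 4.29e-05). ZEB1, which acts on CDH1, had 864, 1275, 1282, 1224 and 1202 at pH 6.5, against 456, 661, 504, 507 and 561 at pH 7.4, a log2 change of 1.12 ± 0.13 (1.12 ± 0.16 with 8 libraries). EHF, an epithelial ETS factor, spanned 429 to 877 at pH 6.5, against 1853 to 5078 at pH 7.4, a log2 change of -2.01 (-1.64 with 8 libraries), highest in pH 7.4 replicates 6 and 7. TFCP2L1, of the grainyhead-related family, fell, with a log2 change of -2.09 (-2.02 with 8 libraries). TP63, the master factor of squamous epithelium, had 14.8, 5.60, 8.97, 13.8 and 0 at pH 6.5, against 43.8, 53.0, 58.7, 80.8 and 56.7 at pH 7.4. Its call was lost with 8 libraries when pH 7.4 replicate 5 was also left out (limma adjusted p = 0.0569), and without pH 6.5 replicate 7, where it was at 0, the change was -2.39 in place of -3.09.

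Among genes of epithelial adhesion, the cadherin CDH1 had 232, 133, 134, 167 and 197 at pH 6.5, against 1658, 1373, 1772, 3405 and 4734 at pH 7.4. Libraries did not overlap, pH 7.4 replicates 6 and 7 were highest, and the log2 change was -3.77 ± 0.31 (-3.23 ± 0.19 with 8 libraries). EPCAM, an epithelial adhesion molecule, and LSR, a protein of tricellular junctions, fell, with log2 changes of -3.31 (-2.85 with 8 libraries) and -3.99 (-3.96 with 8 libraries). LSR spanned 134 to 394 at pH 6.5, against 2826 to 3545 at pH 7.4. ESRP1, the splicing factor that sets epithelial isoforms, fell, with a log2 change of -2.32 (-2.10 with 8 libraries), and QKI, a splicing factor that favours mesenchymal isoforms, rose, with a log2 change of 0.70 (0.92 with 8 libraries). The hemidesmosome genes ITGA6 and COL17A1 fell, with log2 changes of -1.58 (-1.72 with 8 libraries) and -4.16 (-4.01 with 8 libraries). Of the 8 keratins in the list of epithelial markers, 5 were called lower and 3 were not called. KRT8 spanned 28352 to 91374 at pH 6.5, against 118964 to 204330 at pH 7.4, and KRT18, its partner in filaments, fell, with a log2 change of -0.96 (-0.93 with 8 libraries), as did KRT5 by -1.38 (-1.29 with 8 libraries) and KRT6A by -2.73 (-2.95 with 8 libraries). The call of KRT5 was lost without pH 6.5 replicate 6 or 7 or pH 7.4 replicate 6 alone (limma adjusted p = 0.0606, 0.0572 and 0.0587). KRT17, KRT7 and KRT14 were not called with 10 libraries, at log2 changes of -0.53 (-0.68 with 8 libraries), -0.44 (-0.60 with 8 libraries) and -0.42 (-0.74 with 8 libraries) (limma adjusted p = 0.225, 0.0536 and 0.48), and with 8 libraries KRT7 was called lower (adjusted p = 0.0272). KRT19 fell, with a log2 change of -3.81 (-3.95 with 8 libraries), with 716, 61.6, 277, 166 and 14.5 at pH 6.5, against 1851, 1911, 2118, 1931 and 1228 at pH 7.4. The log2 change of KRT19 was -4.44 without pH 6.5 replicate 1 and -3.06 without replicate 7. FN1, fibronectin, rose, with a log2 change of 1.32 (1.77 with 8 libraries). No other of the 15 mesenchymal markers was called higher with 10 libraries. Most of the others were called lower with 10 libraries, and the rest were not called or not tested. Several of these calls depended on pH 7.4 replicates 6 and 7. With 8 libraries COL1A1, COL1A2 and COL3A1 were not called (limma adjusted p = 0.079, 0.146 and 0.155). SPARC and CDH2 then fell below the level for testing. TWIST1 was called higher with 8 libraries, at 0.38 (limma adjusted p = 0.027), but not with 10, at 0.06 (0.842). VIM, CDH2 and SPARC, also counted as mesenchymal, stood at most at 5.60, 0.862 and 2.69 at pH 6.5. At pH 7.4 they were high mainly in replicates 6 and 7. The splicing list as a whole held 138 tested genes, pseudogenes of HNRNPA1 included, of which 23 were higher and 19 lower (23 and 10 of 127 with 8 libraries). The shares were 16.7% and 13.8%, beside 19.7% and 21.1% over all genes.

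Further factor genes fell. POU2F3, the factor of tuft cells and of squamous layers, had 113, 46.2, 144, 87.0 and 43.6 at pH 6.5, against 794, 397, 594, 476 and 1153 at pH 7.4, a log2 change of -3.01 ± 0.36 (-2.86 ± 0.39 with 8 libraries). The homeobox genes DLX2 and TLX1 fell, with log2 changes of -2.99 (-3.10 with 8 libraries) and -4.32 (-4.35 with 8 libraries), and SOX18, a factor of vessels and hair follicles, by -2.36 (-2.42 with 8 libraries). GATA5 fell, with a log2 change of -2.07 (-2.29 with 8 libraries), and the zinc finger genes ZNF467, ZNF521 and ZNF365 by -3.40 (-3.55 with 8 libraries), -2.84 (-2.73 with 8 libraries) and -2.37 (-2.45 with 8 libraries). PPARG, a receptor for fatty acids that drives fat storage and urothelial and squamous differentiation, spanned 141 to 304 at pH 6.5, against 871 to 1132 at pH 7.4, a log2 change of -2.16 (-2.15 with 8 libraries). ESRRA, an orphan receptor that drives mitochondrial genes, fell, with a log2 change of -1.15 (-1.08 with 8 libraries), and the thyroid hormone receptor THRB by -0.88 (-0.80 with 8 libraries). Over the families, the changes split as follows, beside 19.7% higher and 21.1% lower over all genes. Of 74 homeobox genes other than HOX, 18 (24.3%) were higher and 20 (27%) lower (16 and 21 of 73 with 8 libraries). Of 10 SOX factors, 5 were higher and 2 lower (3 and 2 of 10 with 8 libraries). Of 20 ETS factors, 7 were higher and 4 lower (5 and 2 of 20 with 8 libraries). Of 30 nuclear receptors tested, 7 were higher and 10 lower (5 and 8 of 28 with 8 libraries). Of 51 bHLH factors, 14 were higher and 15 lower (10 and 13 of 51 with 8 libraries), and of 46 bZIP factors, 13 were higher and 5 lower (9 and 5 of 46 with 8 libraries). Forkhead genes numbered 36, of which 7 were higher and 13 lower (7 and 8 of 36 with 8 libraries), with FOXE1 and FOXC1 at -1.02 (-0.92 with 8 libraries) and -0.91 (-0.90 with 8 libraries). Of 427 ZNF genes, 87 were higher and 68 lower (59 and 51 of 426 with 8 libraries). The share lower was 15.9%, beside 21.1% over all genes, and 12% with 8 libraries, beside 16.2%, while the share higher was 20.4%, beside 19.7%.

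**Figure D2:**
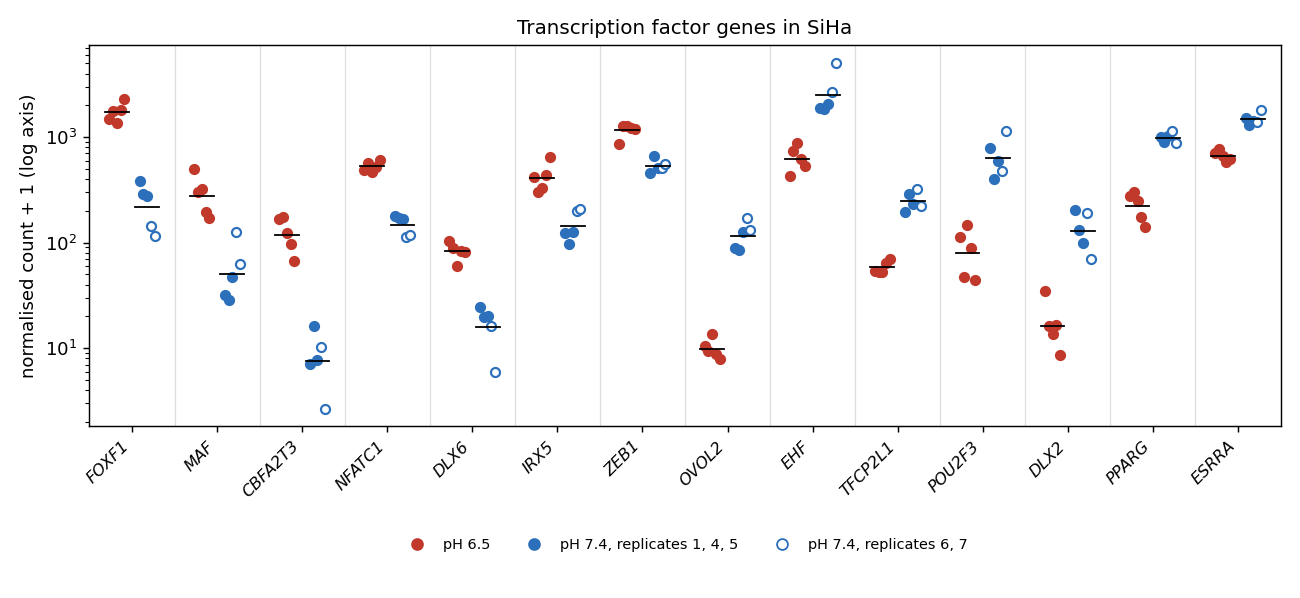
Normalised count plus 1 on a log axis of 14 transcription factor genes in each SiHa library, pH 6.5 (red) left of pH 7.4 (blue), with open circles for pH 7.4 replicates 6 and 7 and bars at the geometric mean. The first 7 genes were higher at pH 6.5 and the other 7 lower, and no gene overlaps between the groups.

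HOX genes, which record position along the body and lie in clusters, were more often lower than higher. Of 37 tested, 4 (10.8%) were higher and 14 (37.8%) lower (4 and 10 of 35 with 8 libraries), with a median log2 change of -0.31. The shares over all genes were 19.7% and 21.1%. The members called higher included HOXC10, at 230.4 to 294 at pH 6.5, against 127 to 154 at pH 7.4, a log2 change of 0.92 (0.92 with 8 libraries). HOXD9, HOXD11 and HOXD13, from another cluster, fell, with log2 changes of -1.35 (-1.44 with 8 libraries), -1.15 (-1.17 with 8 libraries) and -0.99 (-0.93 with 8 libraries). Whether the clusters differ was not tested. Of 23 circadian clock genes, 10 were higher and 4 lower (7 and 3 of 23 with 8 libraries), beside 40.8% of all genes called. NPAS2, the partner of BMAL1 that can stand in for CLOCK, had 18.9, 30.8, 28.7, 20.7 and 22.2 at pH 6.5, against 183, 85.2, 124, 197 and 369 at pH 7.4, a log2 change of -2.78 ± 0.33 (-2.34 ± 0.28 with 8 libraries). TIMELESS, which acts in replication as well as in the clock list, spanned 6546 to 7487 at pH 6.5, against 1934 to 4038 at pH 7.4, a log2 change of 1.12 (0.98 with 8 libraries).

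Several receptor genes rose, among them EDNRB (ENSG00000136160), the endothelin receptor type B of melanocytes, enteric nerve and endothelium. It had 8569, 10932, 10973, 11996 and 14949 normalised counts at pH 6.5, against 1360, 980.4, 1255, 1204 and 2530 at pH 7.4. The lowest pH 6.5 library stood above the highest pH 7.4 library, which was replicate 7. The log2 change was 3.03 ± 0.22 (3.25 ± 0.16 with 8 libraries), with limma adjusted p = 4.03e-06 and 1.67e-06. HTR2C, a serotonin receptor of the brain, had 111, 113, 98.6, 115 and 88.0 at pH 6.5, against 7.13, 3.79, 7.90, 1.17 and 5.01 at pH 7.4. Its log2 change was 4.29 (3.91 with 8 libraries). CCR3, the eotaxin receptor of eosinophils, had 102, 81.2, 85.2, 141 and 101 at pH 6.5, against 5.09, 10.4, 4.51, 7.02 and 16.7 at pH 7.4. The CCR3 log2 change was 3.51 (3.80 with 8 libraries), and neither gene overlapped between the groups. Orphan receptors GPR160 and GPR63 fell, with log2 changes of -2.06 (-1.96 with 8 libraries) and -1.79 (-1.76 with 8 libraries). Of 108 G protein-coupled receptors tested, out of 281 in the table, 19 were higher and 33 lower (16 and 31 of 108 with 8 libraries), a median of -0.16. The shares were 17.6% and 30.6%, beside 19.7% and 21.1% over all genes, so the share higher was near that of all genes. For the adhesion class that follows, the shares were 44.4% and 22.2%. Of 18 adhesion receptors of this class, 8 were higher and 4 lower (5 and 4 of 18 with 8 libraries), among them ADGRA2, a Wnt coreceptor of brain vessels, at 1.47 (1.33 with 8 libraries), and ADGRG1 at 1.42 (1.25 with 8 libraries), while ADGRE2 fell, with a log2 change of -1.43 (-1.40 with 8 libraries).

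Genes of cyclic nucleotide signalling were more often lower (39.6%) than higher (16.7%), beside 21.1% and 19.7% over all genes. Of 48 cyclases, phosphodiesterases, kinases and anchoring genes, 8 were higher and 19 lower (5 and 14 of 46 with 8 libraries), and ADCY1, a calcium-stimulated adenylyl cyclase, spanned 33.6 to 81.6 at pH 6.5, against 224 to 315 at pH 7.4, a log2 change of -2.44 (-2.51 with 8 libraries). ADCY7 and the phosphodiesterase PDE1A rose, with log2 changes of 0.85 (0.79 with 8 libraries) and 0.95 (1.08 with 8 libraries). CAMK4, a calcium kinase of neurons and T cells, had 16.2, 33.6, 26.9, 17.2 and 17.9 at pH 6.5, against 375, 716, 316, 183 and 91.8 at pH 7.4. The pH 7.4 libraries of CAMK4 were themselves spread widely, with replicates 6 and 7 lowest, and the log2 change was -3.59 ± 0.45 (-4.29 ± 0.32 with 8 libraries).

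Eph receptors and ephrins, which make cells repel or sort at contact, were lower for 8 of 16 members and higher for 3, against shares over all genes of 21.1% and 19.7%. With 8 libraries the counts were again 8 lower and 3 higher. EPHA4 had 17.5, 18.2, 18.8, 12.9 and 6.83 at pH 6.5, against 125, 87.1, 88.0, 77.2 and 85.1 at pH 7.4, a log2 change of -2.62 ± 0.27 (-2.73 ± 0.34 with 8 libraries) without overlap. EPHA1 and EPHA10 fell, with log2 changes of -1.77 (-1.58 with 8 libraries) and -1.70 (-1.65 with 8 libraries), and the ligand EFNA5 rose, with a log2 change of 0.84 (0.99 with 8 libraries). Of 28 other receptor tyrosine kinases, 7 were higher and 8 lower (5 and 7 of 28 with 8 libraries). FGFR3, PTK7, a Wnt coreceptor, and AATK rose, with log2 changes of 1.24 (1.16 with 8 libraries), 1.11 (1.06 with 8 libraries) and 0.89 (1.13 with 8 libraries), AATK with overlap between the groups. STYK1 and MERTK, which clears dying cells, fell, with log2 changes of -1.996 (-1.97 with 8 libraries) and -1.200 (-1.23 with 8 libraries).

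Secreted regulators of these receptors split too. IGFBP5, which binds insulin-like growth factors, had 2559, 2931, 1820, 2050 and 2271 at pH 6.5, against 485, 164, 303, 317 and 676 at pH 7.4, a log2 change of 2.71 ± 0.30 (2.98 ± 0.28 with 8 libraries). IGFBP4 rose, with a log2 change of 1.06 (0.97 with 8 libraries), and IGFBP6, which prefers IGF2, fell, with a log2 change of -1.88 (-2.31 with 8 libraries). The MET ligand HGF had 98.4, 19.6, 39.4, 20.7 and 13.7 at pH 6.5, against 204, 280.4, 320.4, 119 and 30.04 at pH 7.4. Its groups overlapped through pH 7.4 replicate 7, the lowest there, and the log2 change was -2.27 ± 0.64 (-3.12 ± 0.52 with 8 libraries). ANGPT1, a ligand of endothelial TEK, fell, with a log2 change of -3.05 (-2.80 with 8 libraries). In the bone morphogenetic protein pathway, the ligand BMP7 and the receptor BMPR1A fell, with log2 changes of -1.33 (-1.32 with 8 libraries) and -0.76 (-0.80 with 8 libraries), while the transducer SMAD9 rose, with a log2 change of 1.45 (1.35 with 8 libraries). Of 31 genes of the growth factor and IGF-binding list, 7 (22.6%) were higher and 10 (32.3%) lower (5 and 8 of 30 with 8 libraries). In the BMP list of 37, 8 (21.6%) were higher and 6 (16.2%) lower (5 and 7 of 35 with 8 libraries). Over all genes the shares were 19.7% and 21.1%.

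Cytokine receptors were more often higher (33.3%) than lower (13.9%), beside 19.7% and 21.1% over all genes. Of 36 interleukin receptors and members of the gp130 family, 12 were higher and 5 lower (12 and 4 of 37 with 8 libraries), a median of 0.18. IL13RA2, the decoy receptor of interleukin 13, had 194, 539, 181, 174 and 90.5 at pH 6.5, against 29.5, 50.2, 29.3, 32.8 and 20.02 at pH 7.4, with pH 6.5 replicate 4 far above the rest. The log2 change was 2.63 ± 0.39 (2.45 ± 0.45 with 8 libraries). IL2RG, the chain shared by several interleukin receptors of lymphocytes, had 280.3, 709, 268, 219.7 and 700.2 at pH 6.5, against 91.7, 40.7, 67.7, 63.2 and 382 at pH 7.4. Only pH 7.4 replicate 7 reached the range of pH 6.5, and the log2 change was 2.06 ± 0.54 (2.58 ± 0.42 with 8 libraries). LEPR, the leptin receptor, rose, with a log2 change of 1.31 (1.16 with 8 libraries). CSF2RA, a chain of the GM-CSF receptor, fell, with a log2 change of -3.60 (-3.39 with 8 libraries), and spanned 13.99 to 36.4 at pH 6.5, against 259.5 to 424 at pH 7.4. IL1RL2 fell, with a log2 change of -1.47 (-1.49 with 8 libraries).

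In the TNF superfamily the balance was the other way. Of 30 ligands and receptors, 2 (6.7%) were higher and 11 (36.7%) lower (3 and 9 of 30 with 8 libraries). The shares over all genes were 19.7% and 21.1%. The receptor TNFRSF1B had 98.4, 67.2, 70.8, 121 and 161 at pH 6.5, against 18.3, 17.1, 14.7, 28.1 and 48.4 at pH 7.4, a log2 change of 2.05 ± 0.34 (2.49 ± 0.29 with 8 libraries). The ligands TNFSF14 and TNFSF10 (TRAIL, an inducer of cell death) fell, with log2 changes of -3.35 (-3.30 with 8 libraries) and -2.21 (-2.17 with 8 libraries). TNFSF10 spanned 74.3 to 354 at pH 6.5, against 555 to 1096 at pH 7.4.

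Of 45 proteasome subunits and assembly genes, 11 were higher and 14 lower (9 and 7 of 45 with 8 libraries). The shares were 24.4% and 31.1%, beside 19.7% and 21.1% over all genes. With 8 libraries the balance turned, at 20% higher and 15.6% lower, beside 15% and 16.2% over all genes. PSMB8, PSMB9 and PSMB10, the catalytic subunits of the immunoproteasome, which cuts peptides for class I presentation, rose, with log2 changes of 0.67 (0.77 with 8 libraries), 1.07 (1.16 with 8 libraries) and 0.60 (0.68 with 8 libraries). PSMB9 had 1311, 1581, 1251, 1335 and 1686 at pH 6.5, against 697, 601, 609, 702 and 784 at pH 7.4. HLA-B, a class I molecule with close paralogs that may share reads, spanned 23154 to 41114 at pH 6.5, against 7324 to 16544 at pH 7.4, a log2 change of 1.25 (1.48 with 8 libraries). The stress ligand MICB rose, with a log2 change of 0.65 (0.62 with 8 libraries), and RAET1G, another ligand of the same natural killer receptor with near-identical relatives, fell, with a log2 change of -1.49 (-1.65 with 8 libraries). The regulatory subunits PSME3 and PSMD12 fell, with log2 changes of -0.62 (-0.58 with 8 libraries) and -0.49 (-0.48 with 8 libraries).

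In each of 10 lists of transporter genes, more members were lower than higher. The same held over all genes, at 21.1% lower and 19.7% higher, and several of the lists lay near these shares. Vitamin, nucleoside and choline transporters had 4 higher (19%) and 5 lower (23.8%) of 21 (4 and 6 of 21 with 8 libraries). Of 35 ABC transporters tested, 1 was higher and 11 lower (0 and 11 of 35 with 8 libraries), against 19.7% and 21.1% over all genes. ABCA1 (ENSG00000165029), which loads cholesterol onto apolipoprotein A1, had 842, 313, 1093, 451 and 50.4 at pH 6.5, against 3341, 3408, 2358, 4844 and 2446 at pH 7.4. All pH 6.5 libraries lay below the pH 7.4 libraries, but they differed among themselves, with replicate 7 lowest. The log2 change was -3.11 ± 0.65 (-3.03 ± 0.77 with 8 libraries), and -2.40 without pH 6.5 replicate 7 (-2.32 with 8 libraries less that one). ABCG1, which exports cholesterol to high-density lipoprotein, had 1050, 653, 1044, 592 and 298 at pH 6.5, against 3167, 2048, 1787, 3456 and 3743 at pH 7.4, a log2 change of -2.04 ± 0.32 (-1.77 ± 0.36 with 8 libraries). ABCA9 fell, with a log2 change of -2.29 (-2.19 with 8 libraries).

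Solute carriers followed the same balance in several families. Among amino acid transporters 10.3% were higher and 30.8% lower, and among inorganic anion and phosphate transporters 5.7% and 34.3%. Over all genes the shares were 19.7% and 21.1%. Of 39 amino acid transporters, 4 were higher and 12 lower (4 and 13 of 40 with 8 libraries). SLC6A11, a transporter of the neurotransmitter GABA, had 70.1, 65.8, 107, 128 and 111 at pH 6.5, against 510.2, 637, 540.3, 603 and 546 at pH 7.4, a log2 change of -2.59 ± 0.18 (-2.57 ± 0.23 with 8 libraries). SLC1A3, a glutamate transporter, fell, with a log2 change of -2.27 (-1.88 with 8 libraries) and SLC38A11 by -2.002 (-1.498 with 8 libraries), both highest in pH 7.4 replicate 7. SLC7A11, which imports cystine for glutathione, rose, with a log2 change of 1.25 (1.34 with 8 libraries). Of 35 transporters of inorganic anions, cation-chloride pairs and phosphate, 2 were higher and 12 lower (3 and 13 of 35 with 8 libraries). SLC9A9, a sodium-proton exchanger of endosomes, had 8.09, 5.60, 5.38, 1.72 and 0.854 at pH 6.5, against 58.0, 64.4, 58.7, 56.2 and 73.4 at pH 7.4, a log2 change of -3.79 ± 0.41 (-3.76 ± 0.50 with 8 libraries). SLC12A5, the potassium-chloride exporter of neurons, fell, with a log2 change of -2.23 (-2.46 with 8 libraries), and SLC26A1, a sulfate exchanger, by -2.09 (-1.94 with 8 libraries).

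Counts were also taken for further carrier families, beside 19.7% higher and 21.1% lower over all genes. Of 22 nucleotide-sugar and related carriers of the SLC35 family, 2 were higher and 10 lower (1 and 9 of 22 with 8 libraries), with SLC35F2 and SLC35F5 at -0.88 (-0.80 with 8 libraries) and -0.73 (-0.67 with 8 libraries). Of 33 organic anion, cation and monocarboxylate carriers, 4 were higher and 10 lower (4 and 8 of 33 with 8 libraries), and the aromatic amino acid carrier SLC16A10 fell, with a log2 change of -2.70 (-2.46 with 8 libraries) and SLC16A9 by -1.216 (-1.29 with 8 libraries). Of 15 sugar transporters, 2 were higher and 7 lower (1 and 5 of 15 with 8 libraries). SLC2A13, which imports myo-inositol together with protons, rose, at 2478 to 6059 at pH 6.5, against 1183 to 2548 at pH 7.4, a log2 change of 1.34 (1.52 with 8 libraries), with overlap through pH 7.4 replicate 7. Metal transporters numbered 41, of which 8 were higher and 10 lower (5 and 6 of 41 with 8 libraries), shares of 19.5% and 24.4%. Among them were the zinc exporter SLC30A3 at 1.23 (1.33 with 8 libraries) and the iron store FTH1 at -0.78 (-0.96 with 8 libraries). Mitochondrial carriers numbered 43, of which 7 (16.3%) were higher and 11 (25.6%) lower (3 and 8 of 43 with 8 libraries), with SLC25A45 at -1.69 (-1.84 with 8 libraries). The calcium pump ATP2A3 fell, with a log2 change of -2.97 (-3.24 with 8 libraries), within 29 P-type ATPases of which 3 (10.3%) were higher and 7 (24.1%) lower (1 and 6 of 29 with 8 libraries).

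In 5 of 6 lists of channel genes, more members were lower than higher, as over all genes (21.1% lower and 19.7% higher). Ligand-gated channels, the other list, held 5 higher and 5 lower of 25 (3 and 6 of 25 with 8 libraries), and TRP channels and polycystins 2 higher and 4 lower of 15 (3 and 4 of 14 with 8 libraries). Of 35 sodium and calcium channel genes, 5 were higher and 14 lower (3 and 13 of 35 with 8 libraries), a median of -0.30. A pair of auxiliary calcium channel subunits went opposite ways. CACNA2D1 had 3509, 4312, 4432, 3685 and 3925 at pH 6.5, against 1842, 1598, 1648, 1570 and 2161 at pH 7.4, a log2 change of 1.18 ± 0.10 (1.224 ± 0.10 with 8 libraries). CACNA2D3 had 66.0, 47.6, 57.4, 37.9 and 25.6 at pH 6.5, against 406, 300.3, 342, 267 and 317 at pH 7.4, a log2 change of -2.83 ± 0.23 (-2.93 ± 0.28 with 8 libraries). SCN3B, a sodium channel subunit, fell, with a log2 change of -1.93 (-2.09 with 8 libraries).

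Of 43 potassium channel genes, 6 were higher and 10 lower (3 and 11 of 44 with 8 libraries), so that 23.3% were lower, beside 21.1% over all genes. KCNK15, of the tandem-pore class related to acid-sensitive TASK channels, spanned 50.4 to 183 at pH 6.5, against 915 to 1371 at pH 7.4, a log2 change of -3.42 (-3.36 with 8 libraries). KCNH5 fell, with a log2 change of -3.24 (-3.74 with 8 libraries), and its relative KCNH3 and the inward rectifier KCNJ12 rose, with log2 changes of 1.64 (1.43 with 8 libraries) and 1.51 (1.52 with 8 libraries). Of 26 chloride channel genes, 4 were higher and 8 lower (4 and 6 of 27 with 8 libraries), with the endosomal exchanger CLCN5 at 1.11 (1.12 with 8 libraries) and CLCA2, which overlapped, at -2.30 (-2.45 with 8 libraries). AQP5, the water channel of glands, had 111, 13.99, 57.4, 54.3 and 3.42 at pH 6.5, against 419, 371, 425, 427 and 350.4 at pH 7.4. Replicates 4 and 7 at pH 6.5 were lowest, the log2 change was -3.74 ± 0.68 (-3.76 ± 0.83 with 8 libraries), and without pH 6.5 replicate 7 it was -3.05. AQP3, which carries glycerol and water, fell, with a log2 change of -1.17 (-1.29 with 8 libraries) with overlap. The connexin GJC1 rose, with a log2 change of 2.12 (1.88 with 8 libraries), and spanned 373 to 677 at pH 6.5, against 50.1 to 149.7 at pH 7.4. Together the connexins, pannexins and aquaporins numbered 17, of which 1 was higher and 7 lower (1 and 6 of 16 with 8 libraries).

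**Figure D3:**
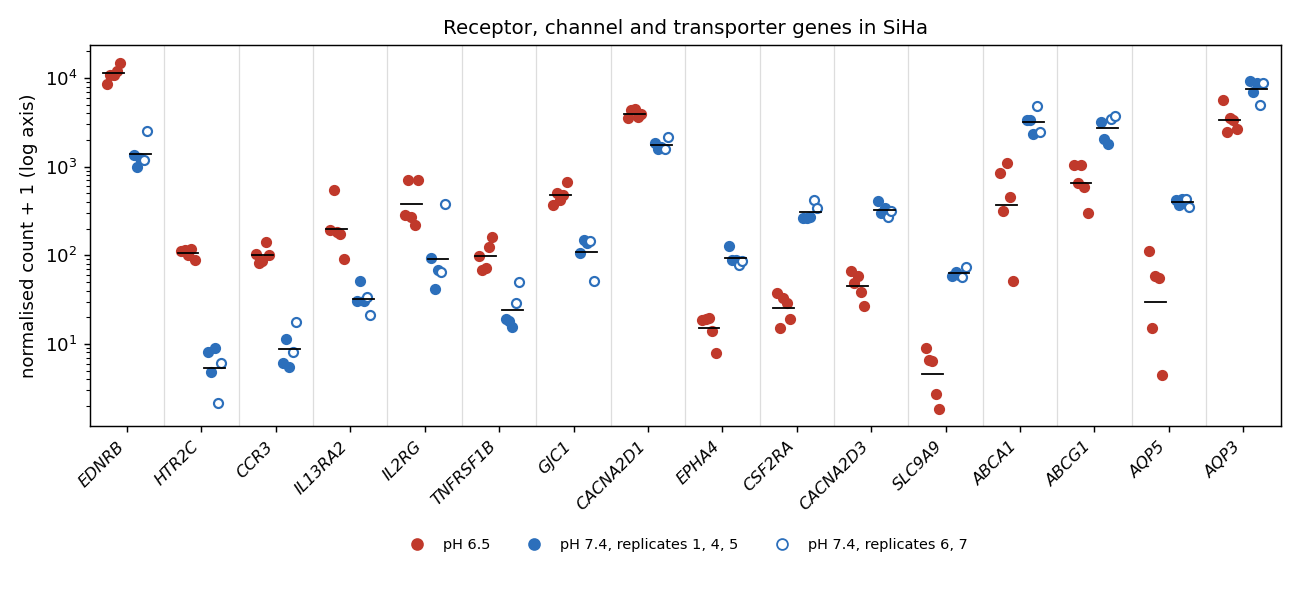
Normalised count plus 1 on a log axis of 16 receptor, channel and transporter genes in each SiHa library, pH 6.5 (red) left of pH 7.4 (blue), open circles for pH 7.4 replicates 6 and 7, bars at the geometric mean. The first 8 genes were higher and the other 8 lower at pH 6.5. IL2RG and AQP3 overlap between the groups, and ABCA1 and AQP5 are spread most widely among the pH 6.5 libraries.

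Glycan enzymes moved both ways. GALNT3 and GALNT7, which attach the first sugar of O-glycans, fell, with log2 changes of -4.97 (-4.69 with 8 libraries) and -3.98 (-3.66 with 8 libraries). GALNT3 spanned 5.98 to 26.6 at pH 6.5, against 316 to 626 at pH 7.4. GALNT7 spanned 12.8 to 55.3 at pH 6.5, against 338 to 788 at pH 7.4. The mucin MUC16, known as the antigen CA125, had 39.1, 47.6, 21.5, 12.1 and 9.39 at pH 6.5, against 373, 296, 276, 315 and 419 at pH 7.4, a log2 change of -3.88 ± 0.38 (-3.79 ± 0.46 with 8 libraries). Of 48 mucin and O-glycosylation genes, 9 were higher and 16 lower (5 and 16 of 48 with 8 libraries). The shares were 18.8% and 33.3%, beside 19.7% and 21.1% over all genes. ST3GAL6 and ST3GAL3, which add sialic acid, rose, with log2 changes of 1.36 (1.42 with 8 libraries) and 1.25 (1.10 with 8 libraries). ST3GAL3 had 803, 832, 761, 819 and 845 at pH 6.5, against 356, 395, 388, 318 and 264 at pH 7.4, a narrow spread in both groups. POFUT2, which adds fucose to thrombospondin repeats, rose, with a log2 change of 1.14 (1.06 with 8 libraries) and FUT1, of the H blood group antigen, fell, with a log2 change of -1.41 (-1.505 with 8 libraries). Of 24 sialyl- and fucosyltransferases, 7 (29.2%) were higher and 5 (20.8%) lower (7 and 4 of 24 with 8 libraries).

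In sphingolipids, B4GALNT1, which makes the gangliosides GM2 and GD2, had 458, 551, 585, 666 and 715 at pH 6.5, against 179, 174, 116, 243 and 185 at pH 7.4, a log2 change of 1.74 ± 0.18 (1.93 ± 0.18 with 8 libraries). SPHK1, which makes sphingosine 1-phosphate, rose, with a log2 change of 1.78 (1.496 with 8 libraries), and SGPP2, a phosphatase that removes it, fell, with a log2 change of -2.45 (-2.36 with 8 libraries). Of 42 genes of this list, 8 were higher and 9 lower (6 and 9 of 42 with 8 libraries). The shares of 19% and 21.4% were near those over all genes, 19.7% and 21.1%. For the proteoglycan list that follows, the shares were 19.2% and 30.8%. Among proteoglycan genes, LUM, lumican, and the sulfotransferase CHST10 fell, with log2 changes of -3.13 (-3.65 with 8 libraries) and -2.86 (-2.94 with 8 libraries), in a list of 52 of which 10 were higher and 16 lower (8 and 16 of 50 with 8 libraries).

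Retinoid genes were more often lower (32%) than higher (16%), beside 21.1% and 19.7% over all genes. ALDH1A3, which makes retinoic acid, had 383, 289.6, 362, 277 and 224 at pH 6.5, against 2830, 2430, 2484, 2766 and 1585 at pH 7.4, a log2 change of -2.97 ± 0.18 (-3.09 ± 0.17 with 8 libraries). RBP4, the carrier of retinol in blood, fell, with a log2 change of -3.66 (-4.07 with 8 libraries), while LRAT, which stores retinol as esters, rose, with a log2 change of 0.79 (0.80 with 8 libraries). Of 25 genes, 4 were higher and 8 lower (3 and 7 of 24 with 8 libraries). In the aldo-keto reductase and aldehyde dehydrogenase list, AKR1C1 and AKR1C2, which reduce steroids and are so alike that reads may be shared between them, rose, with log2 changes of 0.89 (1.14 with 8 libraries) and 1.31 (1.55 with 8 libraries), both with overlap between the groups. AKR1B1, the polyol pathway enzyme and one of the most abundant transcripts here, had 165057, 313230, 218054, 160821 and 210422 at pH 6.5, against 612766, 320285, 436319, 264949 and 781585 at pH 7.4. The groups overlapped through pH 6.5 replicate 4 and pH 7.4 replicate 6, and the log2 change was -1.11 ± 0.28 (-1.09 ± 0.25 with 8 libraries). ALDH3A1, of corneal and squamous epithelium, fell, with a log2 change of -1.89 (-1.79 with 8 libraries). Of 34 genes of this list, 9 were higher and 11 lower (8 and 7 of 35 with 8 libraries). CYP20A1, an orphan cytochrome P450, had 12.1, 4.20, 4.48, 3.45 and 4.27 at pH 6.5, against 75.4, 104, 103, 104 and 95.1 at pH 7.4, a log2 change of -3.97 ± 0.29 (-3.94 ± 0.38 with 8 libraries) with no overlap, and CYP4V2 fell, with a log2 change of -1.77 (-1.84 with 8 libraries). Of 27 cytochrome P450 genes, 3 were higher and 10 lower (3 and 10 of 27 with 8 libraries). PTGES, which makes prostaglandin E2, fell, with a log2 change of -1.83 (-1.84 with 8 libraries), among 19 eicosanoid genes of which 3 were higher and 7 lower (3 and 6 of 19 with 8 libraries).

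Histone genes held the highest share of called genes among the 82 lists. Of 45 tested, 7 were higher and 27 lower (5 and 25 of 45 with 8 libraries), and 75.56% were called where 40.8% of all genes were. The histone genes that lie in clusters supply nucleosomes during DNA replication, and their mRNAs mostly end in a stem-loop without a poly(A) tail, whereas replacement histones come from single genes with polyadenylated mRNAs. How RNA was selected for the libraries is not given in the sources used here. Genes were split in this way by their symbols, not by position, after the values were seen. Of 32 genes with symbols of the clustered kind, here called clustered, 26 were lower and 0 higher (24 lower with both sets of libraries). Their median change was -1.14 (-1.09 with 8 libraries). Of 13 other histone genes, 7 were higher and 1, MACROH2A2, lower, with a median of 0.24 (0.29 with 8 libraries). Clustered genes are close copies of each other, so reads may be split between them, and some of the 32 are named as pseudogenes.

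H3C14 had 392.2, 279.8, 298, 262 and 117 normalised counts at pH 6.5, against 1068, 820.3, 837, 905 and 1086 at pH 7.4, with pH 6.5 replicate 7 the lowest of all. This gave a log2 change of -1.89 ± 0.25 (-1.84 ± 0.31 with 8 libraries) (limma adjusted p = 0.000186 and 0.00168). H1-2, the most abundant of the named clustered genes, had 4550, 2874, 3932, 3043 and 1168 at pH 6.5, against 9186, 8180, 10573, 8255 and 11649 at pH 7.4, a log2 change of -1.74 ± 0.29 (-1.71 ± 0.35 with 8 libraries). H4C8 and H2AC13 fell, with log2 changes of -2.15 (-1.97 with 8 libraries) and -2.03 (-1.87 with 8 libraries), both without overlap. H2AZ1, a replacement histone of promoters, had 10487, 10524, 9353, 8916 and 8622 at pH 6.5, against 3772, 5417, 5924, 6381 and 4632 at pH 7.4, a log2 change of 0.89 ± 0.13 (0.95 ± 0.14 with 8 libraries). H1-10, a linker histone outside the clusters, had 6490, 4593, 4410, 5114 and 4211 at pH 6.5, against 2655, 2706, 2975, 2830 and 1223 at pH 7.4, a log2 change of 1.05 ± 0.22 (0.82 ± 0.13 with 8 libraries), with pH 7.4 replicate 7 lowest.

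The promoters of these 4 genes are shown because genes of one protein family moved in opposite directions. Each runs from 250 bases before to 50 bases after the start of the gene in RefSeq on GRCh38.p14, a later build than that of the reads, 5′ to 3′ on the strand of the gene. Capitals mark the CCAAT box and the TATA motif TATAAA on either strand. The clustered genes H3C14 (chr1:149841159-149841458, minus strand) and H1-2 (chr6:26056421-26056720, minus strand) were lower at pH 6.5, and H2AZ1 (chr4:99950226-99950525, minus strand) and H1-10 (chr3:129316237-129316536, minus strand) higher.
H3C14: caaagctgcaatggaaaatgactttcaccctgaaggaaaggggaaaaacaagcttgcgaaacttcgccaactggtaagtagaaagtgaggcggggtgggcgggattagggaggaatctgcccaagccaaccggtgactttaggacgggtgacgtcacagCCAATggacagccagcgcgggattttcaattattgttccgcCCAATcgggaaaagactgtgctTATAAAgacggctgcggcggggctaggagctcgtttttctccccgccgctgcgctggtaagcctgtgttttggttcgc
H1-2: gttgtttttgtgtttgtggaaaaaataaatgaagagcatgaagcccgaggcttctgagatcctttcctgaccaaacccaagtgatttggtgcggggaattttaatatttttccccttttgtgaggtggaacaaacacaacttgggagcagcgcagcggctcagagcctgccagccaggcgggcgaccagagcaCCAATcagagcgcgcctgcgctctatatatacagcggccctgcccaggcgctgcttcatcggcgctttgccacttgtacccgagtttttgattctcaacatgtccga
H2AZ1: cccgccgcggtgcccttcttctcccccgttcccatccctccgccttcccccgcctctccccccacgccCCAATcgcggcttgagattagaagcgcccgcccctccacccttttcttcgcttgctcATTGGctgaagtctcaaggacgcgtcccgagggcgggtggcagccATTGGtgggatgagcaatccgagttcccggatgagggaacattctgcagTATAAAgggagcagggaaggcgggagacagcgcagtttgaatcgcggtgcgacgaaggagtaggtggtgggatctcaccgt
H1-10: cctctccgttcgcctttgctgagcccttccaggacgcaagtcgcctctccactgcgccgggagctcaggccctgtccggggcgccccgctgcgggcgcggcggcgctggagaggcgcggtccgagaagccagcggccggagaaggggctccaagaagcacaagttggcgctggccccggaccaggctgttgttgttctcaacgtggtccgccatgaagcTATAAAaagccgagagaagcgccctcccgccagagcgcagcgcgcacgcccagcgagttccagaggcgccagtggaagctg

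CCAAT matched at 2, 1, 3 and 0 places in H3C14, H1-2, H2AZ1 and H1-10, and TATAAA at 1, 0, 1 and 1. Among histone promoters in the RefSeq table, CCAAT was in 17 of 21 genes lower in both comparisons and in 2 of 4 higher in both, and in 28 of 34 tested. TATAAA was in 14 of 21 lower in both, 2 of 4 higher in both and 21 of 34 tested. Over the promoters of all tested genes, 36.2% held CCAAT and 6.25% TATAAA. Over all promoters of that length, 35.7% held CCAAT and 12% TATAAA. A match describes letters and is no binding site.

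**Figure D4:**
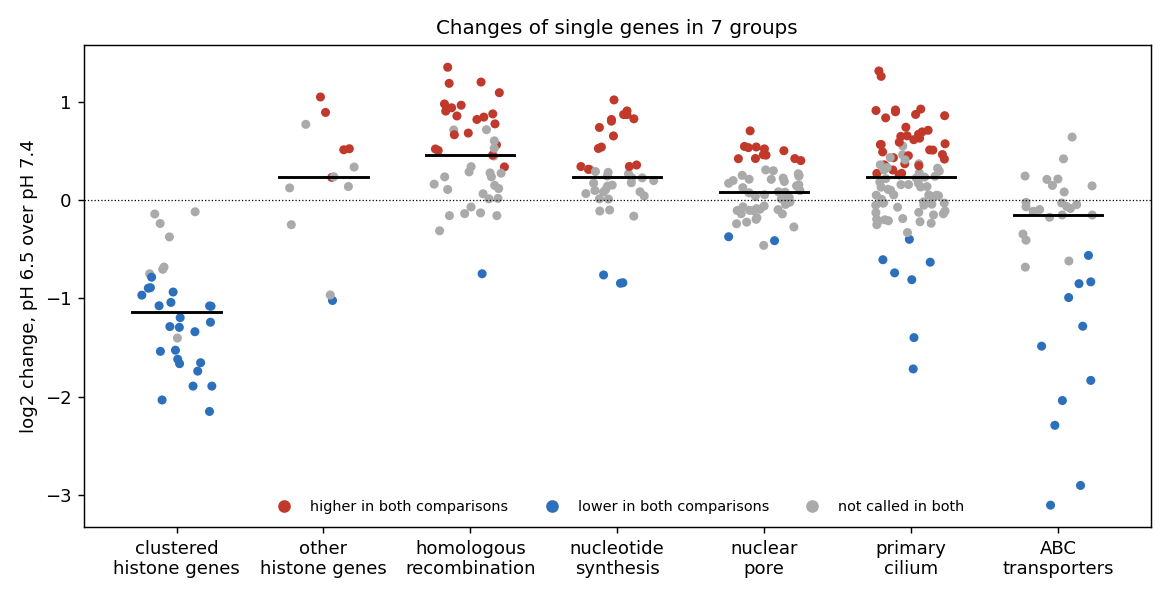
Log2 change of pH 6.5 over pH 7.4 with all 10 libraries for each tested gene of 7 groups, with bars at the group median. Red and blue mark genes higher or lower both with all 10 and with 8 libraries, grey all others. Clustered histone genes lie below 0 without exception, and genes of homologous recombination mainly above it.

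Genes that repair DNA by recombination were more often higher (55.6%) than lower (2.2%), beside 19.7% and 21.1% over all genes. Of 45 genes of homologous recombination and the Fanconi anaemia pathway, 25 were higher and 1 lower (20 and 1 of 45 with 8 libraries), and the median log2 change was 0.46 beside -0.02 over all genes. RAD54L, a motor protein of homologous recombination, had 1050, 1324, 1049, 1172 and 1495 at pH 6.5, against 352, 569, 562, 620.3 and 332 at pH 7.4. Replicates 1 and 7 at pH 7.4 were lowest, no library overlapped, and the log2 change was 1.35 ± 0.18 (1.32 ± 0.18 with 8 libraries). BARD1, the partner of BRCA1, and FANCA, of the Fanconi core complex, rose, with log2 changes of 1.204 (1.13 with 8 libraries) and 1.19 (1.11 with 8 libraries). The member that was lower, FANCF, spanned 52.9 to 103 at pH 6.5, against 123 to 151 at pH 7.4, a log2 change of -0.75 (-0.77 with 8 libraries). Its call was lost with 8 libraries when pH 7.4 replicate 4 or 5 was also left out (limma adjusted p = 0.0824 and 0.0802).

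Nucleotide synthesis gave 21 higher and 3 lower of 42 genes (15 and 3 of 42 with 8 libraries). The shares were 50% and 7.1%, beside 19.7% and 21.1% over all genes. RRM2, a subunit of ribonucleotide reductase, had 15132, 16563, 13181, 15099 and 16302 at pH 6.5, against 6250, 10735, 10198, 11193 and 3079 at pH 7.4, with replicates 7 and 1 lowest at pH 7.4. This gave a log2 change of 1.02 ± 0.29 (0.79 ± 0.16 with 8 libraries). TYMS, which makes thymidylate, and NME4 rose, with log2 changes of 0.87 (0.80 with 8 libraries) and 0.91 (1.02 with 8 libraries), and AMPD3 fell, with a log2 change of -0.85 (-0.80 with 8 libraries). Of 44 excision and mismatch repair genes, 16 were higher and 10 lower (14 and 7 of 44 with 8 libraries), with the sliding clamp PCNA at 0.80 (0.67 with 8 libraries), the ligase LIG1 at 0.72 (0.61 with 8 libraries) and ERCC6, of transcription-coupled repair, at -0.87 (-0.84 with 8 libraries). Of 57 nuclear pore and karyopherin genes, 17 were higher and 3 lower (13 and 2 of 57 with 8 libraries), shares of 29.8% and 5.3%. Among them were NUP85 and NUP107 at 0.71 (0.65 with 8 libraries) and 0.54 (0.49 with 8 libraries) and POM121 at -0.37 (-0.42 with 8 libraries). The cell cycle inhibitor CDKN2C and the spindle gene NUSAP1, both abundant, rose, with log2 changes of 1.32 (1.26 with 8 libraries) and 1.33 (1.19 with 8 libraries). CBX5, heterochromatin protein HP1 alpha, spanned 9378 to 15660 at pH 6.5, against 4548 to 6416 at pH 7.4, a log2 change of 1.07 (1.05 with 8 libraries). The serine pathway enzymes PHGDH and SHMT2 rose, with log2 changes of 1.32 (1.19 with 8 libraries) and 1.02 (1.07 with 8 libraries), and ODC1, which starts polyamine synthesis, fell, with a log2 change of -1.14 (-1.21 with 8 libraries).

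The primary cilium, a single sensory antenna built on a centriole, had 44 of 96 tested genes higher and 8 lower, a median of 0.24. The shares were 45.8% and 8.3%, beside 19.7% and 21.1% over all genes. With 8 libraries the counts were 35 and 9 of 96. Many genes of this list also serve the centrosome in mitosis. TCTN2, of the gate at the base of the cilium, had 1039, 1082, 929.7, 889 and 1247 at pH 6.5, against 452, 605, 441, 392.1 and 307 at pH 7.4, a log2 change of 1.26 ± 0.16 (1.06 ± 0.14 with 8 libraries). TMEM231, of the same gate, and TTC21A, of retrograde transport, rose, with log2 changes of 0.93 (0.86 with 8 libraries) and 1.32 (1.10 with 8 libraries). CEP126, IFT46, of the anterograde train, and INVS fell, with log2 changes of -1.40 (-1.55 with 8 libraries), -0.81 (-0.86 with 8 libraries) and -0.74 (-0.72 with 8 libraries).

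Genes of axon guidance and neural adhesion were more often lower than higher. Of 29 genes of the SLIT, netrin and RGM families, 6 were higher and 15 lower (6 and 11 of 28 with 8 libraries). The shares were 20.7% and 51.7%, beside 19.7% and 21.1% over all genes. NELL2, a secreted ligand of ROBO3, and DPYSL4, of the collapsin response family, fell, with log2 changes of -4.87 (-4.56 with 8 libraries) and -4.08 (-4.21 with 8 libraries). NTNG1, a membrane-anchored netrin, had 21.6, 6.996, 39.4, 16.4 and 2.56 at pH 6.5, against 233, 191, 209, 211 and 254 at pH 7.4, a log2 change of -4.02 ± 0.51 (-3.97 ± 0.63 with 8 libraries). FLRT2 had 286, 327, 311, 281 and 242 at pH 6.5, against 29.5, 49.3, 63.2, 71.4 and 110.1 at pH 7.4, a log2 change of 2.26 ± 0.27 (2.64 ± 0.23 with 8 libraries), and RTN4R, the Nogo receptor, rose, with a log2 change of 1.03 (0.96 with 8 libraries). NECTIN3, an adhesion molecule of junctions and synapses, and the giant cadherin FAT4 rose, with log2 changes of 3.15 (2.996 with 8 libraries) and 1.80 (1.69 with 8 libraries). SYT12, a synaptotagmin, spanned 809 to 1298 at pH 6.5, against 4173 to 8887 at pH 7.4, a log2 change of -2.49 (-2.32 with 8 libraries), and L1CAM fell, with a log2 change of -1.32 (-1.62 with 8 libraries) with overlap. Of 53 neural adhesion and synaptic genes, 11 (20.8%) were higher and 18 (34%) lower (10 and 15 of 53 with 8 libraries).

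Small GTPase regulators and membrane traffic held further strong changes. Among RAB genes and their regulators 29.8% were higher and 20.2% lower. The shares were 14.5% and 26.5% for endocytosis genes and 25% and 30.6% for the YAP list. Over all genes they were 19.7% and 21.1%. DOCK3, an activator of RAC1 in neurons, had 63.3, 42.0, 63.7, 57.7 and 49.5 at pH 6.5, against 496, 624, 603, 541 and 429 at pH 7.4, a log2 change of -3.27 ± 0.15 (-3.37 ± 0.18 with 8 libraries). PREX1, another RAC activator, rose, with a log2 change of 1.25 (1.35 with 8 libraries). RAB38, of melanosomes and lung lamellar bodies, and the RAB regulators DENND1C and TBC1D30 fell, with log2 changes of -3.53 (-3.36 with 8 libraries), -3.44 (-3.24 with 8 libraries) and -2.23 (-2.16 with 8 libraries), yet of 104 RAB genes and regulators 31 were higher and 21 lower (23 and 13 of 105 with 8 libraries). CAV1, caveolin, and EHD3 fell, with log2 changes of -1.04 (-1.16 with 8 libraries) and -1.57 (-1.90 with 8 libraries), among 83 endocytosis genes of which 12 were higher and 22 lower (9 and 22 of 82 with 8 libraries). AMOT, a scaffold that binds YAP, spanned 268 to 364 at pH 6.5, against 38.4 to 63.1 at pH 7.4, a log2 change of 2.67 (2.56 with 8 libraries), within 36 genes of the YAP list of which 9 were higher and 11 lower (9 and 10 of 36 with 8 libraries).

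The stretches of neighbouring genes with the most extreme changes were picked from the whole genome. What an arbitrary order of genes would give was not tested. In the order of RefSeq genes, 16346 of the tested genes could be placed. The window of 25 neighbours with the lowest median change ran from TSPAN15 to DDIT4, with 20 genes lower and 1 higher and a median of -1.02 (-0.77 with 8 libraries). The window from PLA2R1 to LRP2, which also holds GALNT3, had 17 lower and 0 higher, a median of -0.77 (-0.54 with 8 libraries). The highest ran from MRPS18B to MICB, with 18 higher and 1 lower and a median of 0.61 (0.615 with 8 libraries). The longest unbroken run of genes called the same way was 18 genes from KCNIP2 to TRIM8, all lower, 15 of them in both comparisons, with a median of -0.61. A run of 12 from IFIH1 to STK39 had a median of -1.51, and a run of 9 from H2BC18 to H2AC20, both histone genes, a median of -1.24. Overlapping genes can share reads, since the strand setting of the count is not given in the sources used here.

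Promoters of genes that rose and of genes that fell were searched for short motifs. RefSeq promoters of 300 bases were matched to 11945 tested genes, 1987 of them higher and 1984 lower in both comparisons. CCAAT, on either strand, was in 41% of promoters of the genes that were higher, 33.6% of those that were lower and 36.2% of those tested. The E2F motif TTTCGCGC was in 1.26%, 0.554% and 0.979%, and the cyclic AMP element TGACGTCA in 4.23%, 2.67% and 3.15%. The CHR motif TTTGAA, of cell cycle promoters, was in 12.2%, 9.27% and 9.99%, and the AP-1 motif TGANTCA in 4.58%, 5.7% and 4.9%. The GC box GGGCGG was in 70.1%, 66.9% and 68.3%, the TEAD motif GGAATG in 11%, 11.7% and 10.9%, and the TATA motif TATAAA in 5.94%, 7.51% and 6.25%. The E-box CACGTG (9.71%, 9.58% and 9.87%), the hypoxia motif ACGTGC (9.06%, 8.67% and 8.61%) and the sterol element TCACCCCAC (0.352%, 0.554% and 0.444%) followed. ACGTGC can overlap CACGTG. Over all promoters of this length in the table the shares were 35.7% for CCAAT, 0.546% for E2F, 1.98% for the cyclic AMP element, 15.4% for CHR, 7.76% for AP-1, 44.6% for the GC box, 14% for TEAD, 12% for TATA, 7.43% for the E-box, 6.87% for the hypoxia motif and 0.425% for the sterol element. These are descriptions with no test.

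Some calls were lost without pH 7.4 replicates 6 and 7. The guidance ligand SLIT3 had 0, 1.40, 1.79, 0 and 0.854 at pH 6.5, against 1.02, 4.74, 24.8, 607 and 904 at pH 7.4, a log2 change of -4.73 ± 1.47 (limma adjusted p = 0.0225) that was not called with 8 libraries (adjusted p = 0.0667). SLIT2, the Hedgehog transducer SMO and CDH2 fell below the level for testing with 8 libraries. With all 10 they were called lower, at -4.18 ± 1.45, -3.85 ± 1.39 and -3.90 ± 1.38. The ETS factor ETV1 had 0, 6.996, 6.28, 4.31 and 0.854 at pH 6.5, against 2.04, 17.1, 23.7, 373 and 542 at pH 7.4, with -3.77 ± 1.25 and -1.64 for the change (adjusted p = 0.0302 and 0.159). These calls were near the threshold. Those of SLIT2, SMO and CDH2 were lost with any 1 pH 6.5 replicate left out, without pH 7.4 replicate 5, 6 or 7 alone and with a pseudocount of 8, and that of SMO also under both other filters on low values. The call of SPARC was lost without pH 6.5 replicate 6 or 7, without pH 7.4 replicate 6 or 7 alone and with a pseudocount of 8. The call of ETV1 was lost without pH 6.5 replicate 1 or 7 and without pH 7.4 replicate 6 or 7 alone, and that of SLIT3 without pH 7.4 replicate 6 alone. In these fits the limma adjusted p was between 0.0501, for SLIT2, and 0.101, for SMO. Without pH 7.4 replicate 1, the log2 changes were larger, at -5.84 for SLIT3 and -4.78 for ETV1.

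At pH 6.5 every value of SLIT2, SLIT3, SMO, CDH2, PRRX1 and SOX2 was under the floor of 3 reads, so their fitted log2 changes depend on the pseudocount. PRRX1 and SOX2, factors of mesenchyme and of stem cells, kept their calls with 8 libraries, at -5.57 ± 1.11 and -4.97 ± 1.26 with all libraries and -3.52 and -2.73 with 8. PRRX1 had 1.35, 0, 1.79, 1.72 and 0.854 at pH 6.5, against 9.17, 20.8, 54.1, 619 and 1036 at pH 7.4, and SOX2 had 0, 1.40, 0.897, 0.862 and 1.71 at pH 6.5, against 2.04, 12.3, 46.2, 492 and 743 at pH 7.4. The call of SOX2 was lost with 8 libraries when pH 7.4 replicate 4 was also left out (adjusted p = 0.062), and without replicate 5 it was below the level for testing. RUNX2, a factor of bone, changed by -1.71 (-0.89 with 8 libraries), and with 8 libraries its call was lost on leaving out any 1 further library other than pH 6.5 replicate 1 (adjusted p of 0.0527 to 0.139). VIM changed by -6.15 (-3.40 with 8 libraries), and with 8 libraries its call was lost on leaving out pH 7.4 replicate 4 or 5 or pH 6.5 replicate 1, 6 or 7 (adjusted p of 0.0586 to 0.187). TCF4, a bHLH factor of neural and mesenchymal cells, behaved in the opposite way. It had 613, 872, 876, 890.1 and 1054 at pH 6.5, against 16.3, 14.2, 59.8, 582 and 966 at pH 7.4, so that replicates 6 and 7 at pH 7.4 lay within or near the range of pH 6.5 and the other 3 far below it. This gave a log2 change of 3.12 ± 1.02 with all libraries (limma adjusted p = 0.0285) and 5.08 with 8 (adjusted p = 2.18e-05). With 10 libraries its call was lost on leaving out any 1 of 7 libraries (adjusted p of 0.0511 to 0.0641), and edgeR and DESeq2 did not call it (0.206 and 0.271).

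**Figure D5:**
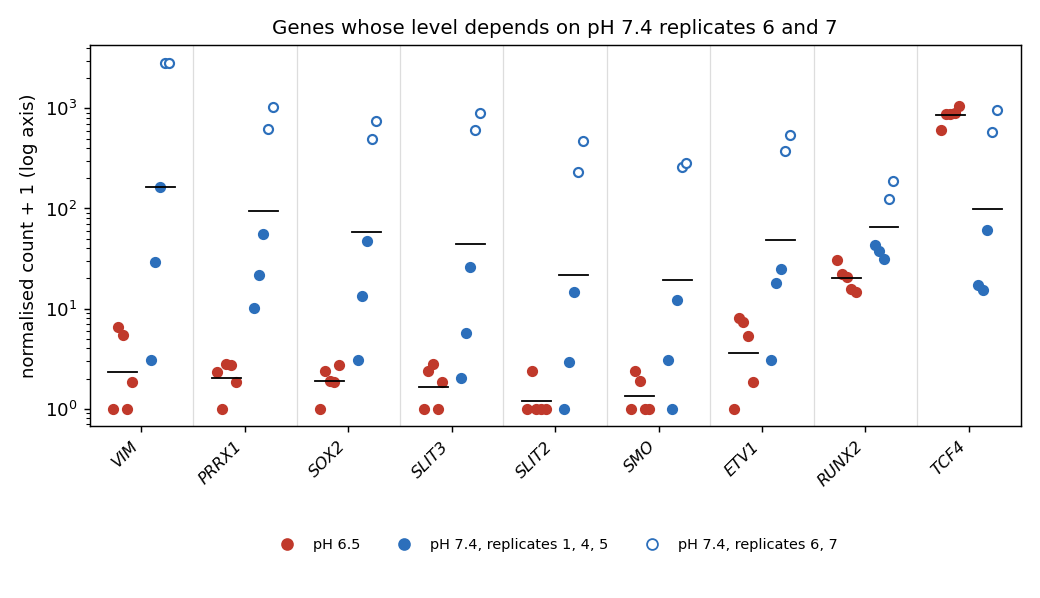
Normalised count plus 1 on a log axis of 9 genes in each SiHa library, pH 6.5 (red) left of pH 7.4 (blue), with open circles for pH 7.4 replicates 6 and 7 and bars at the geometric mean. In the first 8 genes the open circles lie above every other library, and in TCF4 they lie beside the pH 6.5 libraries.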

How the data were processed

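The submitters sequenced RNA of the 10 SiHa libraries. Per the submitters' processing notes, bcl2fastq 2.20, FastQC, Trimmomatic 0.38, STAR 2.6.1d and DESeq2 1.22.2 were used with GRCh37; no source used here names the counting program or its strand setting. The deposited signal values are gene counts divided by a size factor. Whole reads were recovered from their steps, with 100% of values whole within 0.01 steps, and gave 21.02 to 39.73 M reads per library. Of 38122 identifiers, 28307 had a symbol. Here log2(normalised count + 1) was tested for 18834 genes (those whose higher group averaged 10 or more) with limma 3.58.1 in R 4.3.3, with trend and Benjamini-Hochberg adjustment at 0.05 over all genes tested, and was tested on simulated data first. The second comparison left out pH 7.4 replicates 6 and 7. Alternatives were edgeR 4.0.16 and DESeq2 1.42.0 on recovered reads, other filters, scalings and pseudocounts, a replicate block and leaving out each library. The floor of 3 reads is 2.56 to 5.01 normalised counts, depending on the library, and covers counting error only. Genes were named by size of change per list among genes called in both comparisons, by loss of the call, by abundance, or as markers. The gene lists and genes were chosen with earlier results of these data known, so no list is independent evidence. Genes with near-identical copies, overlapping genes and antisense genes are uncertain. Promoters came from RefSeq on GRCh38.p14. Some results are not reported here.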

Additional observations from a re-analysis of the deposited data

Results flagged for a closer look

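A single library stood far from the other 4 of its group for 24 of 418 gene and group pairs examined, by the gap to the nearest library as a share of the range. Chance gives about 1 such pair in 20, or 21 of 418. Values are normalised counts, with the range of the other 4 libraries of the same pH. In pH 6.5 replicate 1, ZEB1 at 864 (others 1202 to 1282), LSR at 394 (others 134 to 204) and RAET1G at 159 (others 72.6 to 96.8) stood apart. The same library also stood apart for CYP20A1 at 12.1 (others 3.45 to 4.48) and ERCC6 at 447 (others 589 to 646). In pH 6.5 replicate 4, IL13RA2 at 539 (others 90.5 to 194), LRAT at 157 (others 206 to 218) and PTGES at 325 (others 159 to 193) stood apart. The same library also stood apart for SYT12 at 809 (others 1160 to 1298). In pH 6.5 replicate 7, ZNF365 at 9.39 (others 36.4 to 44.8) and HLA-B at 41114 (others 23154 to 27959) stood apart. In pH 7.4 replicate 1, DDIT3 at 222 (others 135 to 160.1), EPHA4 at 125 (others 77.2 to 88.0) and ODC1 at 10712 (others 6903 to 7842) stood apart. In pH 7.4 replicate 4, ALDH3A1 at 3223 (others 4850 to 5148) stood apart. In pH 7.4 replicate 6, AMPD3 at 279 (others 199 to 221) and PREX1 at 806 (others 595 to 652) stood apart. In pH 7.4 replicate 7, SOX9 at 479 (others 186 to 255), EHF at 5078 (others 1853 to 2691) and EDNRB at 2530 (others 980.4 to 1360) stood apart. The same library also stood apart for RCAN1 at 8370 (others 2269 to 3319), IL2RG at 382 (others 40.7 to 91.7) and SLC2A13 at 2548 (others 1183 to 1523). The same library also stood apart for H1-10 at 1223 (others 2655 to 2975). pH 7.4 replicate 7, which had the lowest depth at 21.02 M reads, held 7 of them.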

How the results depend on the processing

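With all 10 libraries, leaving out 1 library gave 3134 to 3725 genes higher and 3367 to 4008 lower at pH 6.5. Without pH 7.4 replicates 6 and 7 the counts were 2775 and 3012, and leaving out 1 more library then gave 1736 to 3088 higher and 1815 to 3385 lower. The lowest counts came without pH 7.4 replicate 5 (1736 and 1815), then without replicate 1 (1935 and 1923) and replicate 4 (2147 and 2178). Fewer libraries were left in those fits. Other filters, scalings, pseudocounts and tools gave 3397 to 3954 higher and 3235 to 4313 lower. The replicate block gave 3920 higher and 4219 lower. The labels do not say whether the same numbers pair the samples, and the main test assumed no pairing. Same-numbered libraries deviated together with correlations of 0.31, 0.000282, -0.0044, 0.122 and 0.0589 for numbers 1, 4, 5, 6 and 7. Between libraries of different numbers the correlations were -0.202 to 0.103. Whether libraries of the same number share a batch was not tested. Windows of 15 genes gave a highest and lowest median log2 change of 0.73 and -1.2, and windows of 41 genes 0.51 and -0.73, against 0.61 and -1.02 for 25. Of 215 genes tried under 26 alternatives, 198 were called in every one, and 14 lost their call or had no value in 1 or more. The other 3 are keratins not called with 10 libraries, and 0 of the 215 reversed. Some genes named only as markers were not among the 215.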
